A study of Mus musculus with 12 samples.

Results

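The 58 Rab GTPase genes of these tables were described in mouse brain and spleen with and without Norad, a cytoplasmic noncoding RNA. Members were all genes whose symbol is Rab followed by a number and, where present, a letter, and they made up 58 of the 24062 genes measured. Poly(A) RNA of 10-week-old males was sequenced, 3 libraries in each of 4 groups: Norad-/- brain, Norad+/+ brain, Norad-/- spleen and Norad+/+ spleen. The mice are labelled C57BL/6, and Norad had been deleted by CRISPR/Cas9 in C57BL/6J oocytes, so every cell of the Norad-/- organs carried the deletion. Of the 3 founder lines the study made, the one behind each library is not named. The study's methods give 3 mice per genotype for both organs, so the organs shared animals, but which libraries come from 1 mouse is not given and the tests between organs take the libraries as separate samples. Levels are FPKM, read numbers set per kilobase of transcript and per mapped reads of the library, as deposited by the authors, so levels of different genes are compared per length.

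Rab proteins are small GTPases that sit on the membranes of the cell and give each compartment its identity. Bound to GTP they recruit motors, tethers and fusion factors, and they are switched on by exchange factors and off by GTPase activating proteins. In the brain the family is best known for synaptic vesicle release, in which Rab3 takes part, and in blood and immune cells for phagosomes and secretory granules, in which Rab20, Rab27 and Rab32 take part. Norad binds PUMILIO proteins, which repress mRNAs through the PUMILIO response element (PRE), the 8 letters TGTANATA in the 3′ UTR.

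In Norad-/- brain the Norad transcript was at 0 to 0.0121 FPKM, against 206 to 635 FPKM in Norad+/+ brain, and in Norad-/- spleen at 0 to 0.0173 FPKM, against 42.9 to 62.0 FPKM in Norad+/+ spleen. The 11 brain tissue markers summed to 3679 to 3849 FPKM in Norad-/- brain and 3629 to 3924 FPKM in Norad+/+ brain, and the 9 spleen tissue markers to 1342 to 1423 FPKM in Norad-/- spleen and 1209 to 1367 FPKM in Norad+/+ spleen. Replicate 3 of both Norad+/+ groups stood apart. Its median Spearman correlation with the other libraries of the tissue was 0.949 in brain, where the other libraries had 0.973 to 0.979, and 0.948 in spleen, where they had 0.961 to 0.971. Norad+/+ brain replicate 3 held the highest or lowest brain value of 33 of the 49 Rab genes compared there, and Norad+/+ spleen replicate 3 that of 27 of 47 in spleen. Markers of other tissues were high in 2 libraries: 6 pituitary markers summed to 1338 FPKM in Norad-/- brain replicate 3 and at most 1.48 FPKM in the other brain libraries, and 8 pancreas markers summed to 395 FPKM in Norad+/+ spleen replicate 3 and at most 9.66 FPKM in the other spleen libraries. That spleen library also held 113 FPKM of 6 liver markers, against at most 1.02 FPKM, and 98.8 FPKM of the 11 brain markers, against 65.4 to 74.1 FPKM in the other spleen libraries.

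The PREs of the family are shown first, because PUMILIO proteins, which Norad binds, act on mRNAs through such sites. Of the 58 Rab genes, 22 (37.9%) had at least 1 PRE in the longest annotated 3′ UTR, against 23.8% of the 20041 genes with a 3′ UTR, and 6 (10.3%) had 2 or more, against 7.51%. Rab 3′ UTRs were also longer, with a median of 1950 bases against 1127 bases, and per kilobase they held 0.245 PREs against 0.218. Rab3c, a synaptic vesicle Rab, had 4 PREs, Rab27b, a Rab of secretory granules, had 3, and Rab14, Rab21, Rab22a and Rab8b, which work on recycling endosomes, early endosomes and routes to the cell surface, had 2 each. The sites of 5 of these genes follow, with those of Rab31 and Rab9b, the genes of largest genotype difference in each direction in brain. Each line gives the sense strand of the transcript, 5′ to 3′, from GENCODE M21 on GRCm38, with the PRE in capitals and 11 bases on each side.
Rab3c site 1: ccagtaggaaaTGTATATAtatatatatat
Rab3c site 2: ctggctaaattTGTATATAaaaagatgttc
Rab3c site 3: gacttactcagTGTATATAaagtagtgtgc
Rab3c site 4: tctttttagttTGTAGATAatggtataccc
Rab14 site 1: ctgctggtgtgTGTATATAtttacaaaaca
Rab14 site 2: atctaaatattTGTAAATAaagtacctgta
Rab21 site 1: aatcctactgtTGTAGATAggaaatagact
Rab21 site 2: ctctccacatgTGTATATAcctgtcccatc
Rab22a site 1: attataaattaTGTAAATAcattaataact
Rab22a site 2: gtaaagaatgaTGTAAATAttttgttaata
Rab8b site 1: ctttgctaaatTGTATATAatttgagctca
Rab8b site 2: ttgcttaataaTGTACATAtgtgcattatt
Rab31 site 1: gtttgtatatgTGTAAATAtggtttttatg
Rab9b site 1: tgactgccaatTGTATATActatattctga

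All of these PREs lie in exonic 3′ UTR sequence. The Rab3c sites are on the minus strand at chr13:110061232-110061239, chr13:110058923-110058930, chr13:110056354-110056361 and chr13:110055808-110055815, spread over a 3′ UTR of 7628 bases. Those of Rab14 are at chr2:35180431-35180438 and chr2:35180232-35180239, and those of Rab21 at chr10:115288812-115288819 and chr10:115288309-115288316, all on the minus strand. Rab22a carries its sites on the plus strand at chr2:173701961-173701968 and chr2:173707284-173707291, the second starting at base 6461 of a 3′ UTR of 6492 bases. The Rab8b sites are at chr9:66845473-66845480 and chr9:66845388-66845395 on the minus strand, close together in a 3′ UTR of 4055 bases. Rab31 has its site at chr17:65652438-65652445 and Rab9b at chrX:136859480-136859487, both on the minus strand. Under the relaxed motif TGTANATN, 17 Rab genes (29.3%) had 2 or more sites, against 22.9% of all genes with a 3′ UTR.

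Brain and spleen differed in most of the family. Of 55 Rab genes tested between Norad+/+ brain and Norad+/+ spleen, 27 were higher in brain, 19 were lower in brain and 9 did not pass (limma on log2(FPKM + 0.1), adjusted p under 0.05 by Benjamini-Hochberg over all genes tested). Among all 14216 genes tested 79.0% passed, 35.4% higher and 43.6% lower in brain, so a tissue difference as such was common. The median log2 difference of the tested Rab genes was 0.43, against -0.24 over all genes. Rescaling every library to a common sum moved the Rab median to 0.63 and that over all genes to -0.04, and left 43 Rab genes past the threshold, 28 higher and 15 lower in brain. Values of both tissues come from separate deposited tables, each scaled library by library, so they are set side by side on that basis. Of these 46 genes, 41 kept the call under every alternative in which they were fitted, 5 lost it in at least 1 (Rab5c, Rab11b, Rab13, Rab35 and Rab40c) and 0 reversed. In whole organs fewer cells of a type and less RNA per cell cannot be told apart.

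Genes detected in a single tissue had to differ, because they entered the test through that tissue. With a mean of at least 1 FPKM as the limit, 42 Rab genes were present in both Norad+/+ organs, 7 in brain only, 6 in spleen only and 3 in neither. Present in brain only were Rab3b, Rab3c, Rab9b, Rab26, Rab33a, Rab39b and Rab40b, and in spleen only Rab19, Rab20, Rab32, Rab38, Rab39 and Rab44. For these genes the p-values below are no evidence of a difference, and the counts by role include them. Of the 42 present in both, 20 were higher and 13 lower in brain, together 78.6%, against 72.3% of the 10486 genes present in both. The 3 genes in neither were Rab17 and Rab25, which serve recycling endosomes of epithelial cells, at up to 0.0473 and 0.274 FPKM in the Norad+/+ libraries, and Rab42, at 0.628, 1.12 and 0.676 FPKM in Norad+/+ brain and 0.343, 0.330 and 0.441 FPKM in Norad+/+ spleen.

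**Figure D1:**
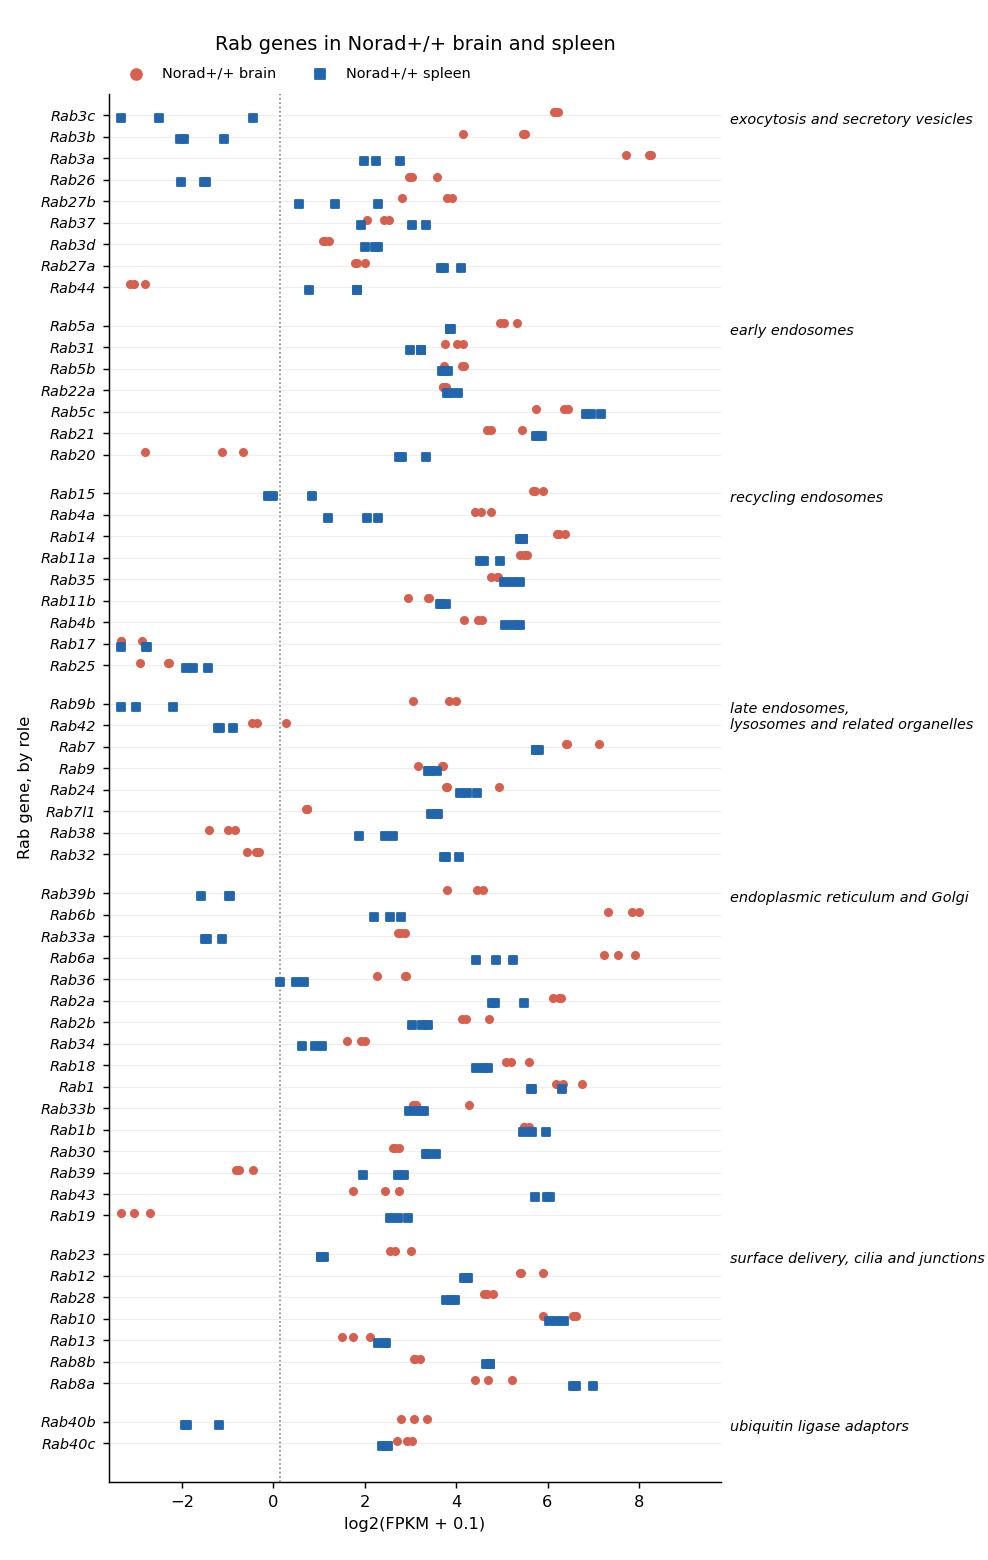
Levels of all 58 Rab genes in Norad+/+ brain (circles) and Norad+/+ spleen (squares), 1 point per library, 3 per tissue, on a log2(FPKM + 0.1) axis, with genes grouped by role and ordered within a role by the ratio of brain to spleen; the dotted line is 1 FPKM. Rab3c, Rab3b, Rab3a and Rab6b lie far to the right in brain, and Rab19, Rab20, Rab32, Rab43 and Rab44 far to the right in spleen.

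Rab genes of exocytosis held the largest differences towards brain. Of 9, 5 were higher in brain, 3 were lower and 1 did not pass. Rab3a, the main Rab of synaptic vesicles, was the most abundant Rab in brain, with 299, 305 and 210.1 FPKM in Norad+/+ brain against 4.65, 3.84 and 6.73 FPKM in Norad+/+ spleen. Its log2 difference was 5.73 ± 0.25 (SE, limma adjusted p = 1.93e-06), and it ranked 93rd of all genes in Norad+/+ brain by mean FPKM. Its relatives Rab3b and Rab3c also serve regulated release. Rab3c had 70.0, 75.2 and 72.02 FPKM in Norad+/+ brain and 0.0768, 0 and 0.637 FPKM in Norad+/+ spleen, a difference of 8.27 ± 0.68 (limma adjusted p = 3.23e-05) that the pseudocount understates. Rab3b had 45.3, 44.2 and 17.7 FPKM in Norad+/+ brain and 0.143, 0.157 and 0.374 FPKM in Norad+/+ spleen (6.73 ± 0.44, limma adjusted p = 1.01e-05). Neither overlapped between tissues, as was the case for 82.3% of all genes tested, but brain libraries spread widely for Rab3b and closely for Rab3c. Spleen replicate 3, the library with raised brain markers, was the highest spleen library for both, as it was for Rab9b and Rab15, and the part of those markers was not tested. Without it the log2 difference of Rab3c was 9.09, and without spleen replicate 2 it was 7.65.

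The remaining exocytic Rab genes split between the tissues. Rab26, a Rab of secretory granules, had 7.71, 8.09 and 11.8 FPKM in Norad+/+ brain and 0.259, 0.147 and 0.251 FPKM in Norad+/+ spleen (4.86 ± 0.24, limma adjusted p = 3.08e-06). In the other direction went Rab27a, which docks lytic granules, with 3.48, 3.36 and 3.94 FPKM in Norad+/+ brain and 12.6, 17.1 and 13.2 FPKM in Norad+/+ spleen (-1.95 ± 0.16, limma adjusted p = 2.83e-05). Rab44, a large Rab of mast cell granules, was close to 0 in brain, at 0.0208, 0.0132 and 0.0428 FPKM, against 1.63, 3.48 and 3.47 FPKM in Norad+/+ spleen (-4.49 ± 0.33, limma adjusted p = 1.85e-05). Rab3d, the Rab3 of exocrine and mast cell granules, was the only Rab3 gene lower in brain, at 2.02 to 2.21 FPKM against 3.94 to 4.78 FPKM in Norad+/+ spleen, with a log2 difference of -1.03. Rab27b, known from platelet granules, was higher in brain by 2.10, and Rab37, a Rab of mast cell granules, overlapped between tissues.

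Early endosomes were nearly even between the organs. Of 7 genes, 2 were higher in brain, 3 were lower and 2 did not pass, and the median log2 difference was -0.15. Rab5 directs the fusion of early endosomes, and its copies differed in tissue. Rab5c was the most abundant Rab of the spleen, with 82.2, 87.3 and 53.9 FPKM in Norad+/+ brain and 115, 123 and 144 FPKM in Norad+/+ spleen, and was lower in brain (-0.80 ± 0.22), a call lost on rescaling to a common sum (limma adjusted p = 0.0511). Rab5a was higher in brain, at 30.9 to 40.1 FPKM against 14.4 to 14.7 FPKM in Norad+/+ spleen (1.24 ± 0.13), and Rab5b, at 13.2 to 18.1 FPKM in brain and 12.8 to 14.0 FPKM in spleen, did not pass. Rab20, a Rab of maturing phagosomes, had 0.3604, 0.534 and 0.0435 FPKM in Norad+/+ brain and 6.68, 6.90 and 10.05 FPKM in Norad+/+ spleen (-4.50 ± 0.55, limma adjusted p = 2.48e-04). Every brain library was below 1 FPKM, and every spleen library was above it. Rab31 was higher in brain (0.83), Rab21, which moves integrins, was lower (-0.85), and Rab22a did not pass (13.1 to 13.7 FPKM in Norad+/+ brain and 13.9 to 16.3 FPKM in Norad+/+ spleen).

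Among recycling endosome genes the leading one was Rab15, a Rab known from neurons. It had 52.9, 51.4 and 60.0 FPKM in Norad+/+ brain and 0.821, 0.894 and 1.71 FPKM in Norad+/+ spleen (5.53 ± 0.27, limma adjusted p = 2.71e-06). Of the 7 genes of this role that were tested, 4 were higher and 3 lower in brain. Rab4a and Rab4b, which run the fast return of receptors to the surface, went opposite ways: Rab4a was higher in brain, with a log2 difference of 2.73, and Rab4b was lower, at -0.84. Rab11, which runs the slow route, was split in the same direction but by less, with Rab11a higher at 0.79 and Rab11b lower at -0.45. Rab14, which links endosomes and Golgi, was higher (0.84), and Rab35, of the fast route, was lower (-0.36). The calls of Rab11b and Rab35 did not hold on rescaling to a common sum (limma adjusted p = 0.292 and 0.289). With 1 library left out, the limma adjusted p reached 0.0905 for Rab11b and 0.116 for Rab35. Rab4a and Rab4b overlap unnamed protein-coding gene models on their own strand, so reads of these could be counted with them.

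Of 7 late endosome and lysosome genes tested, 2 were higher in brain, 3 were lower and 2 did not pass. Rab7, which takes late endosomes to lysosomes, had 86.4, 84.8 and 139.9 FPKM in Norad+/+ brain and 56.2, 54.0 and 53.5 FPKM in Norad+/+ spleen (log2 difference 0.89). Rab9b, a relative of the Golgi-bound late endosome Rab Rab9, had 14.2, 8.21 and 15.8 FPKM in Norad+/+ brain and 0.0248, 0 and 0.118 FPKM in Norad+/+ spleen (6.47 ± 0.37, limma adjusted p = 5.65e-06). Rab9 itself overlapped between tissues, at 8.94 to 13.1 FPKM in brain and 10.3 to 11.9 FPKM in spleen, as did Rab24, an autophagy Rab, at 13.5 to 30.4 FPKM in brain and 16.8 to 21.8 FPKM in spleen. Rab32 and Rab38 build melanosomes and related granules. Rab32 had 0.707, 0.675 and 0.572 FPKM in Norad+/+ brain and 13.1, 13.7 and 16.5 FPKM in Norad+/+ spleen (-4.27 ± 0.15, limma adjusted p = 1.11e-06), and Rab38 had 0.458, 0.278 and 0.400 FPKM and 3.54, 5.32 and 6.04 FPKM in the same order (-3.39 ± 0.26, limma adjusted p = 2.19e-05). Rab7l1, a partner of the kinase LRRK2 also named Rab29, had 1.55, 1.58 and 1.57 FPKM in Norad+/+ brain and 10.9, 11.8 and 12.01 FPKM in Norad+/+ spleen (-2.81 ± 0.11, limma adjusted p = 1.58e-06). None of these 3 overlapped between organs, as was the case for 82.3% of all genes tested.

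The endoplasmic reticulum and Golgi role was the largest, with 16 genes, of which 9 were higher in brain, 4 were lower and 3 did not pass. Rab6 carries vesicles from the Golgi and back to it. Rab6b, the neuronal form, had 232, 257 and 159 FPKM in Norad+/+ brain and 4.50, 5.80 and 6.87 FPKM in Norad+/+ spleen (5.21 ± 0.24, limma adjusted p = 2.23e-06). Rab6a, the widespread form, had 242, 186 and 151 FPKM in Norad+/+ brain and 21.5, 29.3 and 38.0 FPKM in Norad+/+ spleen (log2 difference 2.71). Both were among the 3 most abundant Rab genes of the brain. Rab39b, whose loss in humans causes intellectual disability, had 24.03, 22.0 and 13.8 FPKM in Norad+/+ brain and 0.409, 0.233 and 0.418 FPKM in Norad+/+ spleen (5.46 ± 0.28, limma adjusted p = 3.42e-06). Rab33a had 6.87, 7.26 and 6.49 FPKM in Norad+/+ brain and 0.255, 0.264 and 0.36 FPKM in Norad+/+ spleen (4.16 ± 0.17, limma adjusted p = 1.49e-06). In each of these genes the lowest brain library lay above the highest spleen library. Of all genes tested 82.3% did not overlap between organs, counting both directions. Rab39b and Rab33a, present in brain only, entered the test through brain. The other brain-high genes of the role were Rab36 (2.24), Rab2a (1.19), Rab2b (1.13), Rab34 (0.98) and Rab18, a Rab of lipid droplets (0.71).

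The 4 Golgi Rab genes lower in brain were Rab19, Rab43, Rab39 and Rab30. Rab19 had the largest difference of the family in that direction, with 0.0216, 0 and 0.0533 FPKM in Norad+/+ brain and 7.58, 6.53 and 5.78 FPKM in Norad+/+ spleen (-5.77 ± 0.22, limma adjusted p = 1.38e-06). Rab43 had 5.32, 6.61 and 3.26 FPKM in Norad+/+ brain and 53.2, 63.1 and 66.5 FPKM in Norad+/+ spleen (-3.61 ± 0.26, limma adjusted p = 1.69e-05), and it overlaps an unnamed protein-coding gene model on its strand. Rab39, the relative of Rab39b, had 0.496, 0.469 and 0.636 FPKM in Norad+/+ brain and 3.79, 7.18 and 6.5 FPKM in Norad+/+ spleen (-3.18 ± 0.27, limma adjusted p = 3.73e-05). Rab30 was lower by a smaller margin (-0.74). Rab1, the Rab of transport from the endoplasmic reticulum to the Golgi, was among the 5 most abundant Rab genes of both organs, with 109, 80.5 and 72.4 FPKM in Norad+/+ brain and 50.1, 49.9 and 79.1 FPKM in Norad+/+ spleen, and did not pass. Rab1b had 44.6 to 48.3 FPKM in brain and 43.7 to 62.7 FPKM in spleen, and Rab33b, which binds the autophagy factor Atg16L, 8.26 to 19.2 FPKM and 7.68 to 9.72 FPKM in the same order, and neither passed.

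Rab genes of surface delivery, cilia and junctions split evenly, with 3 higher and 3 lower in brain of 7. Rab8a, which carries cargo to the surface and the cilium, was the second most abundant Rab of the spleen, with 21.4, 25.7 and 37.1 FPKM in Norad+/+ brain and 94.4, 99.0 and 127 FPKM in Norad+/+ spleen (-1.95 ± 0.23, limma adjusted p = 2.35e-04). Rab8b was also lower in brain (-1.59), as was Rab13, a Rab of tight junctions (-0.61), whose call was lost on rescaling to a common sum (limma adjusted p = 0.0681) and without 1 of several libraries (up to 0.0585). Higher in brain were Rab12 (1.35), Rab23, which acts in hedgehog signalling at the cilium (1.68), and Rab28, known from photoreceptors (0.81). Rab10, which takes part in surface delivery of glucose transporters, had 93.4, 59.3 and 98.6 FPKM in Norad+/+ brain and 65.03, 82.0 and 73.6 FPKM in Norad+/+ spleen and overlapped between tissues. Both ubiquitin ligase adaptors were higher in brain: Rab40b had 10.2, 6.82 and 8.36 FPKM in Norad+/+ brain and 0.169, 0.164 and 0.339 FPKM in Norad+/+ spleen (4.75 ± 0.26, limma adjusted p = 4.84e-06), and Rab40c differed by 0.43, a call lost without 1 of several libraries (limma adjusted p up to 0.0735).

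The tissue pattern was also measured in the Norad-/- libraries, which share no library with the Norad+/+ ones. Of 54 Rab genes tested there, 29 were higher and 17 lower in brain, where 85.8% of all 14081 genes passed, 39.9% higher and 45.9% lower. Of the 39 Rab genes at 1 FPKM or more in both Norad-/- organs, 19 were higher and 12 lower in brain (79.5%, against 81.2% of such genes). Together 26 were higher in brain in both genotypes, 16 were lower in both and 0 went opposite ways. This joint count was not made over all genes, of which 79.0% passed in Norad+/+ and 85.8% in Norad-/- mice. It also includes genes present in 1 organ only, whose direction was set by how they entered the test. Rab1, Rab5b, Rab9 and Rab24 passed in Norad-/- only, and Rab11a, Rab21 and Rab35 in Norad+/+ only. For these 7 genes the difference between genotypes did not pass (limma adjusted p from 0.447 to 0.939). Rab3a and Rab5c were again the most abundant Rab genes of brain and spleen, with 284, 287 and 316 FPKM of Rab3a in Norad-/- brain and 115, 115 and 119 FPKM of Rab5c in Norad-/- spleen. Rab3c differed by 9.39 ± 0.09 in Norad-/- mice and Rab19 by -5.66 ± 0.17, against 8.27 ± 0.68 and -5.77 ± 0.22 in Norad+/+ mice. The widest gap was that of Rab27b, at 3.59 ± 0.49 in Norad-/- and 2.10 ± 0.49 in Norad+/+ mice.

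**Figure D2:**
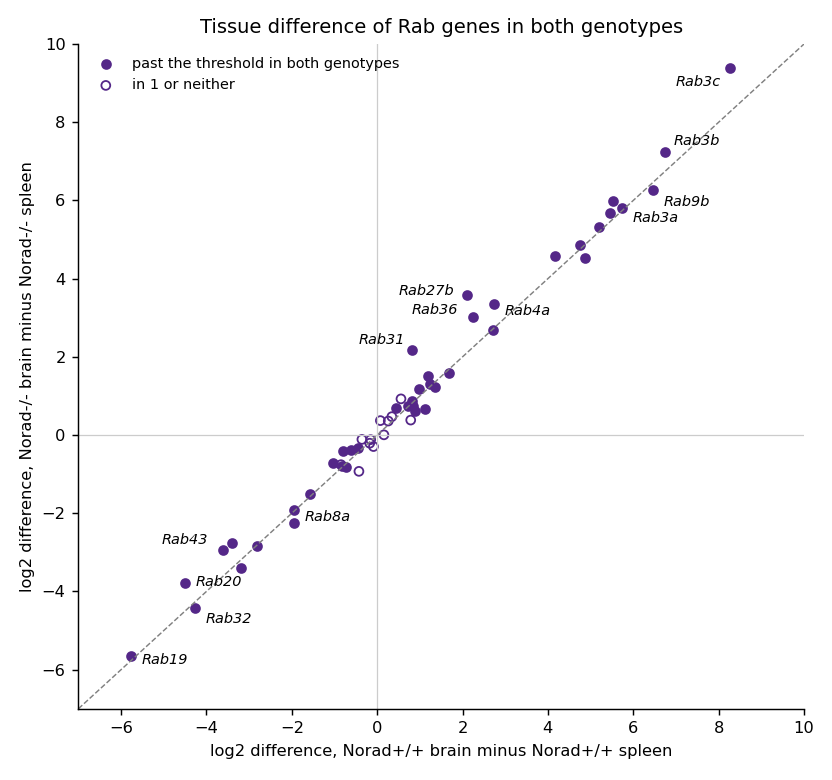
Log2 difference between brain and spleen of 54 Rab genes, in Norad-/- mice (vertical axis) and in Norad+/+ mice (horizontal axis), with the dashed line marking equal values; filled points passed the threshold in both genotypes. Points run along the line from Rab19 at lower left to Rab3c at upper right, and Rab31, at 2.18 in Norad-/- and 0.83 in Norad+/+ mice, and Rab27b lie above it.

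Summed over the family, Rab transcripts took a larger part of the brain than of the spleen. Of the summed FPKM they made up 0.734, 0.696 and 0.713% in Norad-/- brain, against 0.749, 0.703 and 0.591% in Norad+/+ brain. In Norad-/- spleen they made up 0.375, 0.368 and 0.322%, against 0.341, 0.325 and 0.344% in Norad+/+ spleen. Genotypes overlapped in both organs, and organs did not overlap. The composition differed as well. The 4 Rab3 genes took 18.8 to 20.8% of all Rab FPKM in Norad-/- brain and 16.4 to 21.5% in Norad+/+ brain, but 0.790 to 0.913% in Norad-/- spleen and 0.798 to 0.994% in Norad+/+ spleen. Rab5c and Rab8a together took 5.49 to 5.83% in Norad-/- brain and 4.95 to 5.68% in Norad+/+ brain, but 19.4 to 20.9% in Norad-/- spleen and 20.2 to 21.9% in Norad+/+ spleen.

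In some pairs of close relatives the shares differed between brain and spleen. Rab39b made up 97.2 ± 1.4% of the summed FPKM of Rab39b and Rab39 in Norad+/+ brain and 6.30 ± 3.30% in Norad+/+ spleen (SD, n = 3 each). For Rab27b of Rab27b and Rab27a the shares were 75.2 ± 9.7% in Norad+/+ brain against 16.4 ± 9.1% in Norad+/+ spleen. Rab40b took 53.3 ± 6.5% of Rab40b and Rab40c in Norad+/+ brain against 3.94 ± 1.52% in Norad+/+ spleen. Rab9b made up 51.7 ± 12.7% of the Rab9 pair in Norad+/+ brain and 0.407 ± 0.512% in Norad+/+ spleen. Rab40c was itself higher in brain and Rab9 overlapped between organs, so those pairs did not divide the organs between their members. In all of these pairs the shares of Norad+/+ brain and spleen libraries did not overlap, whereas those of the Rab8 and Rab2 pairs did. Rab8a held 75.8 ± 5.1% of the Rab8 pair in Norad+/+ brain and 80.2 ± 2.2% in Norad+/+ spleen. Rab2a held 78.5 ± 3.3% of the Rab2 pair in Norad+/+ brain, against 77.5 ± 6.2% in Norad+/+ spleen. In Norad-/- mice the organs did not overlap in either pair. There Rab8a held 75.6 to 76.3% in brain and 79.4 to 81.8% in spleen, and Rab2a 81.6 to 84.0% and 71.2 to 74.4%. In the pair Rab31 and Rab22a, Rab31 held 71.1 ± 1.4% in Norad-/- brain against 54.0 ± 3.3% in Norad+/+ brain. Its share was 33.2 ± 2.6% in Norad-/- spleen against 37.3 ± 2.4% in Norad+/+ spleen.

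**Figure D3:**
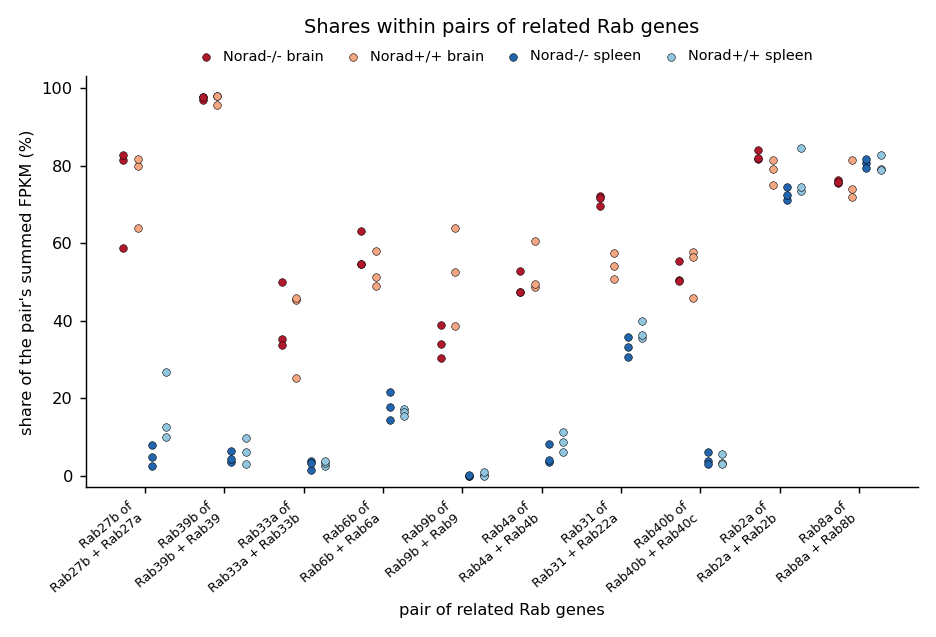
Share of the first-named gene in the summed FPKM of 10 pairs of related Rab genes, in percent, 1 point per library and 3 per group, with Norad-/- left of Norad+/+ and brain left of spleen. Shares of Rab39b, Rab27b and Rab40b are high in brain and low in spleen, those of Rab2a and Rab8a stay between 71.2 and 84.7%, and Rab31 takes 69.6 to 72.1% in Norad-/- brain and 50.7 to 57.4% in Norad+/+ brain.

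Between genotypes no Rab gene passed the threshold in either organ. In brain 49 Rab genes were tested and 0 passed the limma threshold, against 0.0153% of 13051 genes. At an unadjusted p under 0.05 there were 4 Rab genes, 3 higher and 1 lower in Norad-/- brain (8.16%, against 6.62% of all genes). Groups did not overlap for 8 (16.3%, against 17.1% of all genes), of which 6 were higher in Norad-/- brain (background 10.6%) and 2 lower (background 6.56%). The median log2 difference was -0.01, against 0.02 over all genes. The 9 Rab genes below the expression limit in brain were Rab17, Rab19, Rab20, Rab25, Rab32, Rab38, Rab39, Rab42 and Rab44.

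Rab31, an early endosome and Golgi Rab, had the largest brain difference of the family. It had 31.0, 30.8 and 32.5 FPKM in Norad-/- brain and 16.1, 17.6 and 13.4 FPKM in Norad+/+ brain, so every Norad-/- library lay far above every Norad+/+ library. The log2 difference was 1.0 ± 0.12, and it missed the threshold over all genes (limma adjusted p = 0.127), although leaving out Norad+/+ brain replicate 3 brought it past (0.90, limma adjusted p = 0.0487). Over the other alternatives its adjusted p lay between 0.0864 and 0.615. In spleen the sign was opposite, with 6.23, 6.98 and 7.45 FPKM in Norad-/- spleen and 7.86, 9.27 and 9.24 FPKM in Norad+/+ spleen (-0.35 ± 0.11, limma adjusted p = 0.189), again without overlap. The difference between the genotype effects, brain minus spleen, was 1.35 ± 0.17 on the log2 scale (limma adjusted p = 0.0764). Of all 14192 genes tested for this difference 0.0% passed, and 14.7% had an unadjusted p under 0.05, as had 3 of 55 Rab genes. For Rab31 it passed with a pseudocount of 1 or 0.01, with quantile normalization and without any 1 of 4 libraries, namely Norad+/+ brain replicate 2 or 3, Norad-/- spleen replicate 3 and Norad+/+ spleen replicate 1 (lowest limma adjusted p = 0.00793). Between organs, the level of Rab31 was higher in brain by 2.18 in Norad-/- mice and by 0.83 in Norad+/+ mice. A processed pseudogene lies within Rab31 on its strand.

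Other brain differences were smaller. Rab33a had 7.62, 8.16 and 9.46 FPKM in Norad-/- brain and 6.87, 7.26 and 6.49 FPKM in Norad+/+ brain (0.28 ± 0.11, limma adjusted p = 0.718). Rab36, a Golgi Rab that also positions late endosomes, had 8.70, 8.28 and 8.74 FPKM in Norad-/- brain and 7.26, 7.44 and 4.70 FPKM in Norad+/+ brain (0.43 ± 0.19), and Rab40c had 8.72, 8.47 and 11.2 FPKM and 7.48, 8.05 and 6.47 FPKM in the same order (0.36 ± 0.15). Without Norad+/+ replicate 3, the lowest, the log2 difference of Rab36 was 0.22. Rab35, with 31.6, 32.1 and 36.02 FPKM in Norad-/- brain and 29.5, 30.3 and 27.3 FPKM in Norad+/+ brain, differed by 0.19. Without replicate 3 of both genotypes, a choice made after seeing the data, the log2 differences of Rab33a, Rab40c and Rab35 were 0.16, 0.15 and 0.09. The sixth gene without overlap on the higher side, Rab30, is named for that reason alone and had 6.88, 7.08 and 6.69 FPKM in Norad-/- brain and 6.25, 6.67 and 6.07 FPKM in Norad+/+ brain. Both genes without overlap on the lower side are of the late endosome role. Of the 5 genes of that role tested in brain, 4 lay below 0 and 1, Rab9, above it (0.39 ± 0.19). Rab9b had 8.03, 7.87 and 7.56 FPKM in Norad-/- brain and 14.2, 8.21 and 15.8 FPKM in Norad+/+ brain (-0.64 ± 0.24, limma adjusted p = 0.718), and Norad+/+ replicate 2 sat just above the Norad-/- libraries (-0.93 without it, -0.46 without Norad+/+ replicate 3). Rab7 had 80.1, 82.6 and 81.3 FPKM and 86.4, 84.8 and 139.9 FPKM in the same order (-0.31 ± 0.21), and without Norad+/+ replicate 3 the log2 difference was -0.07.

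Some brain Rab genes varied widely within a genotype, and 2 of them, chosen after their values were seen, are given here. Rab3b had 24.3, 19.0 and 56.3 FPKM in Norad-/- brain and 45.3, 44.2 and 17.7 FPKM in Norad+/+ brain, so replicate 3 was the highest of one group and the lowest of the other. The pituitary markers were high in that Norad-/- library (1338 FPKM, against at most 1.48 FPKM), and their part in Rab3b was not tested. Rab27b had 14.6, 14.2 and 5.95 FPKM in Norad-/- brain and 13.8, 14.97 and 6.99 FPKM in Norad+/+ brain, with replicate 3 lowest in both. Over the 49 genes the highest brain library stood at a median of 1.55 times the lowest, and 10 genes exceeded 2 times.

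**Figure D4:**
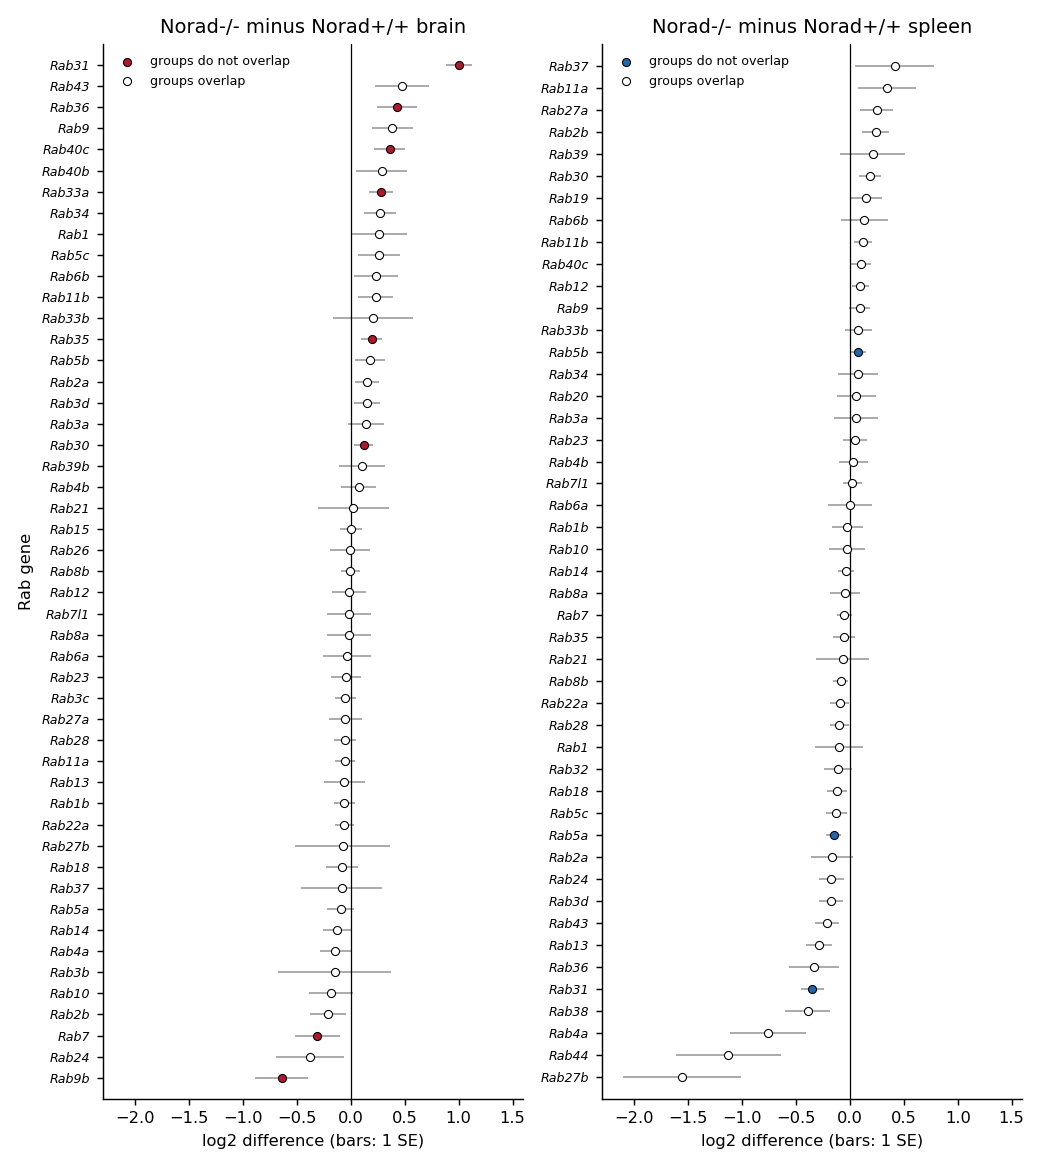
Log2 difference of Norad-/- minus Norad+/+ libraries for the 49 Rab genes tested in brain (left) and the 47 tested in spleen (right), with bars of 1 SE and filled points where the 3 libraries of each genotype do not overlap. Rab31 stands at 1.0 in brain and -0.35 in spleen, and the largest other sizes are those of Rab27b, Rab44 and Rab4a in spleen.

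In spleen 47 Rab genes were tested and 0 passed, against 0.0323% of 12397 genes. At an unadjusted p under 0.05 there were 3, all lower in Norad-/- spleen (Rab13, Rab27b and Rab31), which is 6.38%, against 21.0% of all genes. Groups did not overlap for 3 genes (6.38%, against 26.5% of all genes). The median log2 difference was -0.04, and over all genes it was -0.02, which became 0.10 after rescaling to a common sum. Besides Rab31, the genes without overlap were 2 copies of Rab5. Rab5b had 14.4, 14.0 and 14.1 FPKM in Norad-/- spleen and 13.5, 14.0 and 12.8 FPKM in Norad+/+ spleen (0.08 ± 0.07, limma adjusted p = 0.556), and Rab5a had 13.3, 12.4 and 13.5 FPKM and 14.4, 14.4 and 14.7 FPKM in the same order (-0.15 ± 0.07, limma adjusted p = 0.283). For Rab5b the nearest libraries differed by less than the rounding of these values. After rescaling they were 0.20 for Rab5b and -0.03 for Rab5a.

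The largest spleen differences by size belonged to Rab27b, Rab44 and Rab4a, which are named here after their values were seen. Rab27b had 0.726, 0.457 and 1.498 FPKM in Norad-/- spleen and 1.38, 2.47 and 4.82 FPKM in Norad+/+ spleen (-1.56 ± 0.55, limma adjusted p = 0.203). Rab44 had 0.914, 0.743 and 2.38 FPKM in Norad-/- spleen and 1.63, 3.48 and 3.47 FPKM in Norad+/+ spleen (-1.13 ± 0.49), and Rab4a had 1.53, 1.84 and 2.93 FPKM and 2.19, 4.04 and 4.81 FPKM in the same order (-0.76 ± 0.35). In all 3 genes the groups overlapped, since Norad-/- replicate 3 reached the lowest Norad+/+ library. For Rab27b and Rab4a the highest library was Norad+/+ spleen replicate 3. That library held markers of other tissues, and their part was not tested. With 1 library left out, the log2 difference of Rab27b lay between -1.98 and -1.11. Most blood cell markers had log2 differences of the same sign, given here beside the 3 genes. The 7 platelet and megakaryocyte markers summed to 80.6 to 222 FPKM in Norad-/- spleen and 173 to 317 FPKM in Norad+/+ spleen, with 7 of 7 below 0 and a median log2 difference of -0.84. The 14 red cell precursor markers summed to 78.3 to 1292 FPKM in Norad-/- spleen and 977 to 3328 FPKM in Norad+/+ spleen, with 14 of 14 below 0 (median -3.82). The 9 neutrophil and mast cell markers summed to 164 to 1489 FPKM in Norad-/- spleen and 834 to 2386 FPKM in Norad+/+ spleen, with 8 of 9 below 0 (median -1.93). In that list the mast cell markers Cpa3 and Kit lay near 0, at -0.18 ± 0.22 and 0.03 ± 0.08 (SE). In each list the highest Norad-/- sum was that of replicate 3, which was also the highest Norad-/- library for the 3 Rab genes. The other Norad-/- spleen libraries held at most 95.8, 101 and 281 FPKM, in the order of the lists given. None of these lists held a marker past the threshold, and their part in the 3 Rab genes was not tested.

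**Figure D5:**
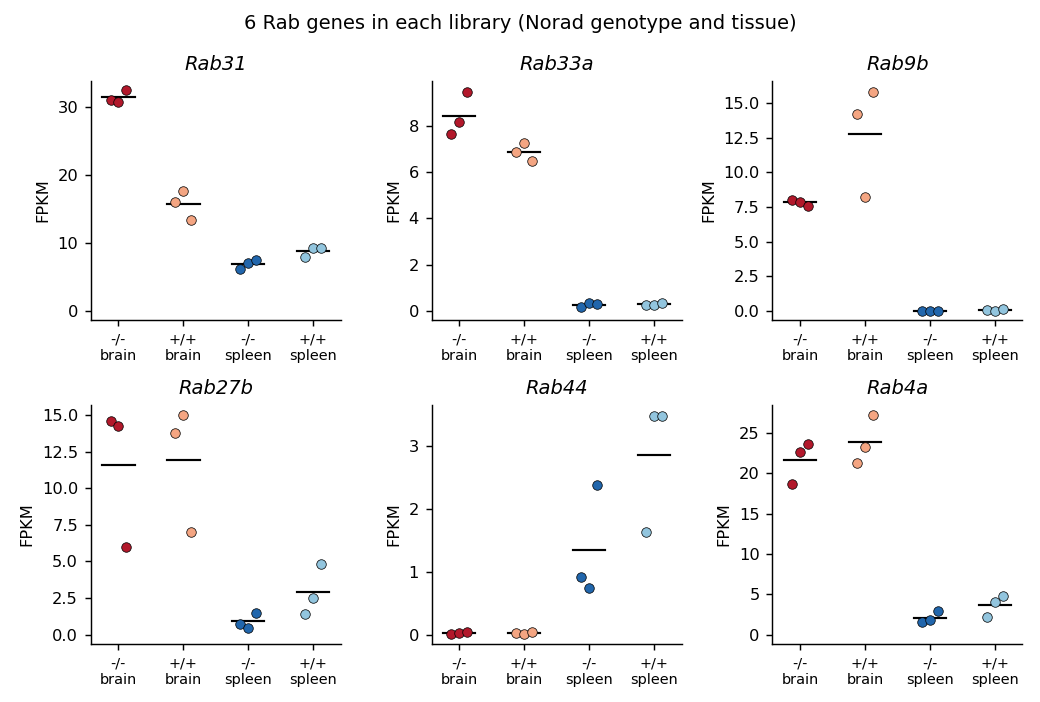
FPKM of 6 Rab genes in each library, 3 per group, with lines at the group means, Norad-/- left of Norad+/+ and brain left of spleen. Rab31 separates the genotypes in brain (30.8 to 32.5 FPKM in Norad-/- and 13.4 to 17.6 FPKM in Norad+/+ libraries), Rab33a and Rab9b by little between their nearest libraries, and Rab27b, Rab44 and Rab4a show overlapping genotypes in spleen.

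None of the Rab genes with 2 or more PREs passed the genotype test. In brain 5 of the 6 lay below 0, with a median log2 difference of -0.05 and a range from -0.13 to 0.02, and the 28 tested Rab genes without a PRE had a median of -0.000855, with 14 on each side of 0. The count of 5 rests on single libraries, since leaving 1 out moved Rab27b between -0.42 and 0.35, Rab21 between -0.30 and 0.26 and Rab8b between -0.05 and 0.03. In spleen 5 were tested and lay below 0, with a median of -0.09 (-1.56 ± 0.55 for Rab27b), but Rab14, Rab21, Rab22a and Rab8b turned positive after rescaling to a common sum, and Rab14 and Rab21 also without 1 library (up to 0.000762 and 0.22). In brain the values were -0.05 ± 0.09 for Rab3c, -0.13 ± 0.13 for Rab14, -0.06 ± 0.09 for Rab22a, -0.01 ± 0.09 for Rab8b, 0.02 ± 0.33 for Rab21 and -0.07 ± 0.44 for Rab27b (SE). In spleen they were -0.04 ± 0.07 for Rab14, -0.09 ± 0.09 for Rab22a, -0.09 ± 0.07 for Rab8b and -0.07 ± 0.24 for Rab21, while Rab3c was not tested. Rab31 and Rab9b, with 1 PRE each, had log2 differences of opposite sign in brain, at 1.0 and -0.64.

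The partners of Rab proteins were followed as a list of 115 genes, which load, activate, inactivate or bind them. In brain 96 were tested and 0 passed, with 6 at an unadjusted p under 0.05 (6.25%, against 6.62% of all genes). In spleen 102 were tested and 0 passed, with 29 at an unadjusted p under 0.05 (28.4%, against 21.0% of all genes). In brain the smallest p values belonged to Lrrk2, the kinase that phosphorylates Rab proteins, and Sytl2, a Rab27 effector. Lrrk2 had 5.90, 5.44 and 5.78 FPKM in Norad-/- brain and 7.31, 7.38 and 8.51 FPKM in Norad+/+ brain (-0.43 ± 0.10, limma adjusted p = 0.605), and Sytl2 had 18.2, 19.1 and 17.7 FPKM and 13.9, 14.9 and 13.7 FPKM in the same order (0.37 ± 0.09). In spleen they belonged to Tbc1d22b, a GTPase activating protein, with 14.6, 16.7 and 14.8 FPKM in Norad-/- spleen and 11.2, 11.8 and 11.3 FPKM in Norad+/+ spleen (0.42 ± 0.08, limma adjusted p = 0.141), and Rab3ip, an exchange factor for Rab8, with 9.52, 10.7 and 9.36 FPKM and 6.84, 7.204 and 7.73 FPKM in the same order (0.44 ± 0.09).

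Between tissues the partners passed in a share near that of all genes, with 46 higher and 40 lower in Norad+/+ brain of 106 tested (81.1%, against 79.0%). Of 33 effectors and kinases tested 20 were higher and 10 lower in brain, of 32 exchange factors 11 were higher and 16 lower, of 33 GTPase activating proteins 13 were higher and 12 lower, and of 8 escorts 2 were higher and 2 lower. Bicd1, a dynein adaptor bound by Rab6, had 7.48, 7.64 and 7.70 FPKM in Norad+/+ brain and 0.346, 0.373 and 0.357 FPKM in Norad+/+ spleen (4.07 ± 0.13, limma adjusted p = 8.51e-07). Rin1, an exchange factor for Rab5, had 9.23, 8.83 and 6.76 FPKM in Norad+/+ brain and 0.382, 0.452 and 0.447 FPKM in Norad+/+ spleen (3.98 ± 0.17). On the spleen side, Unc13d, the Rab27a effector of lytic granules, had 0.475, 0.409 and 0.395 FPKM in Norad+/+ brain and 16.5, 17.5 and 16.4 FPKM in Norad+/+ spleen (-5.01 ± 0.13, limma adjusted p = 6.08e-07). Dennd1c, an exchange factor for Rab35, had 0.412, 0.569 and 0.357 FPKM in Norad+/+ brain and 69.3, 58.7 and 56.7 FPKM in Norad+/+ spleen (-6.83 ± 0.18). Bicd1, Rin1, Unc13d and Dennd1c each lay below 1 FPKM in every Norad+/+ library of 1 organ and entered the test through the other. Their p-values are no evidence of a difference, and the partner counts include such genes. Lists here are counts beside all genes, and no test of a list was made.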

How the data were processed

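Poly(A) RNA of whole brain and spleen was sequenced in 12 libraries, 3 per genotype and organ. The authors aligned reads to GRCm38 with TopHat2 2.0.12 and deposited FPKM per gene, estimated with StringTie 1.2.2, in a table for each organ. Their gene annotation is not given in the sources used here. FPKM holds no counts, so no count model was run, and the authors' featureCounts 1.4.6 and edgeR 3.8.6 served only their own comparisons.

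Where the libraries compared averaged 1 FPKM or more, a gene was tested by limma 3.58.1 in R 4.3.3, on log2(FPKM + 0.1) and allowing the variance to follow the level, and p-values were adjusted by Benjamini-Hochberg over all genes tested, with 0.05 as the threshold. The log2 scale with its pseudocount understates changes of low genes. Tests of 5 contrasts were made: genotype in each organ, organ in each genotype, and the difference of the genotype effects. The study's methods give 3 mice per genotype, so p-values measure the spread between samples of 3 mice, and tests between organs did not model the mice that both organs share. Steps were tested on simulated data. Depth, about 28300000 to 36500000 reads per library, was estimated from FPKM values that are whole multiples of 1 read (44.6 to 49.2% of values up to 0.1 FPKM, within 2%). PREs were searched on the sense strand of the longest GENCODE M21 3′ UTR (GRCm38), in 58 of 58 Rab genes. Tables and figures were made with pandas 2.3.3 and matplotlib 3.10.9.

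The members and lists were chosen with earlier results of these data known. Genes named with test values were those past the threshold (tissue, the 10 largest per direction in full) or, between genotypes, up to 5 per direction with the smallest p among those whose groups did not overlap, with the 5 most abundant per organ, partners up to 4 per direction, and genes with 2 or more PREs. Alternatives were another pseudocount, filter, scaling or variance model, a replicate block, and each library left out.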

Additional observations from a re-analysis of the deposited data

Results flagged for a closer look

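Rab31 was flagged because its genotype difference ran in opposite directions in brain and spleen with no overlap between genotypes in either organ. Genotypes did not overlap for 17.1% of all genes tested in brain and 26.5% in spleen. How many of all genes did so in opposite directions is not given here, so the pattern cannot be called particular to Rab31. Rab31 was higher in 3 of 3 Norad-/- brain libraries, at 31.0, 30.8 and 32.5 FPKM against 16.1, 17.6 and 13.4 FPKM in Norad+/+ brain, and lower in 3 of 3 Norad-/- spleen libraries, at 6.23, 6.98 and 7.45 FPKM against 7.86, 9.27 and 9.24 FPKM in Norad+/+ spleen. The difference between the genotype effects, brain minus spleen, was 1.35 on the log2 scale and did not pass over all genes (limma adjusted p = 0.0764).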

How the results depend on the processing

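The count of Rab genes past the threshold between genotypes was 0 in brain and in spleen, and leaving out 1 library gave 0 to 1 in brain (Rab31, without Norad+/+ replicate 3) and 0 in spleen. For the difference of genotype effects it was 0, and 1, again Rab31, with a pseudocount of 1 or 0.01, with quantile normalization and, chosen after seeing the data, without replicate 3 of both Norad+/+ groups, with 0 to 1 when 1 library was left out. Among partners in spleen it was 0, with 0 to 1 when 1 library was left out. Between organs the count of 46 in Norad+/+ mice ranged from 33 (a minimum of 5 FPKM, which tests fewer genes) to 50, and that in Norad-/- mice from 34 to 50. No value past its threshold reversed, but differences near 0 that passed no test changed sign, among them those of Rab8b, Rab21 and Rab27b in brain and of Rab8b, Rab14, Rab21 and Rab22a in spleen. The Rab share of summed FPKM in Norad+/+ spleen was 0.368% without haemoglobin and mitochondrial genes, and the relaxed motif gave 17 genes with 2 or more sites. No label says whether equal replicate numbers mark paired samples, and the main tests did not pair them. Between genotypes, deviations of same-numbered brain libraries correlated at 0.061 to 0.110, with every library closest to its own number. That is a hint from the data and not the design. Those of same-numbered spleen libraries correlated at 0.338, -0.147 and 0.290, with the highest value, 0.36, between different numbers. Between organs, same-numbered libraries correlated at 0.027 to 0.064 in Norad+/+ mice and -0.017 to 0.042 in Norad-/- mice. Different numbers reached 0.056 and 0.035 in the same order. With a replicate block the counts were 0 in brain, 0 in spleen, 45 and 46 between organs in Norad+/+ and Norad-/- mice and 0 for the difference of effects, and for partners 0, 0 and 87. Under the block Rab35 lost its organ call (limma adjusted p = 0.0725). Depth and 3 libraries per group limit what small differences could be detected.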
